A study of Homo sapiens with 8 samples.

Results

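The genes described here are 32 genes of cholesterol and fatty acid synthesis, followed across 4 treatments of SupB15 cells. They were taken by symbol from a list of 18 enzymes of the sterol pathway, 6 regulators and 8 enzymes of fatty acid synthesis and desaturation. All 32 were among the 16608 genes with counts in every library, and all 32 passed the filter on low counts that left 16320 genes for testing. Other genes of these pathways were not analysed here as members.

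Cells build cholesterol from acetyl-CoA through mevalonate, squalene and lanosterol. They build fatty acids from the same acetyl-CoA, which ATP citrate lyase (ACLY) supplies outside the mitochondria. Both branches are switched on by the SREBP transcription factors, encoded by SREBF1 and SREBF2. When membrane sterol is low, the escort protein SCAP carries the SREBP precursors from the endoplasmic reticulum to the Golgi, where proteases release them. When sterol is high, the INSIG proteins hold SCAP back. Dividing leukemia cells need both products for new membrane.

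SupB15 is an established human cell line of Philadelphia chromosome-positive precursor B cell acute lymphoblastic leukemia. The compound 1035 is known here by its code, and the series title speaks of a histone deacetylase (HDAC) inhibitor. Doxorubicin is an anthracycline that poisons topoisomerase II and breaks DNA. Control cells stood in vehicle (DMSO) during 46 h, and 1 group received 2 µM of 1035 over the same 46 h. Another group (Doxo) received 0.1 µM doxorubicin over 10 h only. Cells of the combination (1035+Doxo) had 36 h of 1035 and then 10 h of doxorubicin, in the same doses. All groups were of 1 cell line in the same medium with serum, a source of cholesterol and fatty acids, and each had 2 libraries that the design text calls independent. DMSO and 1035 were given equally long, but in comparisons with a doxorubicin group the length of exposure cannot be told apart from the agent. Whether 1035 was kept in the medium while doxorubicin was present was not given in the sources used here.

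The 8 libraries held 11760542 to 18144670 counted reads, and the members had between 96 and 9258 reads in a library. The libraries of Doxo differed most from each other: the chi-square per degree of freedom between the libraries of a group was 4.57 in Doxo against 1.79 to 3.12 in the others. All 9 markers of B cell precursors were measured, with a summed level of 3280 to 3430 CPM (a depth-scaled read count) in DMSO and 2200 to 2250 in the libraries with 1035. With 1035 against DMSO 6 of the 9 fell and 2, CD79A and CD79B, rose. IGLL1 (866 and 836 CPM in DMSO, 223 and 265 with 1035) and DNTT (977 and 869 against 503 and 499) made up most of the lower sum. Of 8 T and NK cell markers 7 had no row, that is, they were not among the genes with counts in every library. The other, NKG7, had 9.64 to 11.8 CPM over the 8 libraries and did not pass in 1035 against DMSO. None of the 8 markers of hepatocytes and adipocytes, cells known for high lipid synthesis, had a row. Of 7 stromal markers 4 (COL1A2, COL3A1, DCN, LUM) had no row. The other 3 rose with 1035, their summed level being 53.6 to 58.8 CPM in libraries without 1035 and 122 to 140 in those with it. Of 8 myeloid markers CD14, FCGR3A, S100A8 and S100A9 had no row, and 3 of the other 4 rose and 1 fell, with a summed level of 20.7 to 23.8 CPM without 1035 and 32.2 to 38.2 with it. The share of reads on the nuclear RNA MALAT1 was 0.249% to 0.414% without 1035 and 0.544% to 0.803% with it. The part of these shifts in the values below was not tested. In bulk RNA a lower level per cell and fewer cells with the RNA cannot be told apart.

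Levels below are CPM after TMM scaling, which sets the libraries to a common depth, given for library 1 and then library 2 of a group. Differences between groups are log2 fold changes ± SE, tested with edgeR's quasi-likelihood test and adjusted by Benjamini-Hochberg over all 16320 genes. A gene is said to rise or fall only at a false discovery rate (FDR) of 5%, and every adjusted p below is from this test unless another setting is named. The spread behind the SE was pooled over the 4 groups of 2 libraries and drawn strongly toward that of other genes, so it is mostly not that of the single gene or group.

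In 1035 against DMSO, 15 of the 32 members fell, 5 rose and 12 did not pass the test. Among all tested genes 24.8% fell and 24.2% rose. Of the 18 sterol enzymes 10 fell and 2 rose, and of the 8 fatty acid enzymes 5 fell and none rose. Of the 6 regulators 3 rose and none fell. The median log2 fold change was -0.26 for the sterol enzymes, -0.32 for the fatty acid enzymes and 0.11 for the regulators, against 0.01 for all tested genes. The changes were moderate: no member reached a 2-fold change, the largest being ACAT2 at -0.90 ± 0.07.

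The 4 libraries with 1035, alone or in the combination, were compared with the 4 without by whether their levels overlapped. All 4 were below the others for 15 members, against 24.7% of all genes, and above them for 5 members, against 24.5% of all genes. The 15 were 10 sterol enzymes and 5 fatty acid enzymes, and the 5 were MVD, TM7SF2, INSIG1, INSIG2 and SREBF1. The 10 sterol enzymes were not all those that fell in 1035 against DMSO. They included NSDHL, which did not pass there (adjusted p = 0.391), and left out MSMO1, which fell but overlapped. The remaining 12 members overlapped.

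Promoter windows of 28 of the 32 members were found in a RefSeq table (GRCh38.p14), each running from 250 bases before to 50 bases after a start site. They were searched on both strands for letters bound by factors known to act at sterol genes. CCAAT, read by NF-Y, a partner of SREBP, stood in 21 of 28 members and in 65.8% of their 38 windows. It stood in 34.6% of all 35097 windows and in 34.9% of the 13922 windows of tested genes. By group it was found in 13 of 15 sterol enzymes, 3 of 6 regulators and 5 of 7 fatty acid enzymes. GGGCGG, read by Sp1, stood in 86.8% of the members' windows, in 44.9% of all and in 64.8% of those of tested genes. CACGTG, the E-box, stood in 15.8%, 7.25% and 9.12% of these. TCACNCCAC, a core of the sterol regulatory element, stood in 1 member, SREBF2, and in 1.13% of all windows and 1.05% of those of tested genes. Each motif was searched on its own, so matches of different motifs may overlap, and a match is a description of the sequence only.

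The 250 bases before the start site are shown for 4 members, chosen after their values were seen, because they cover the directions found with 1035. CYP51A1 and EBP are sterol enzymes that fell, INSIG1 is a regulator that rose, and SREBF2 is a regulator that did not pass. Each is printed 5′ to 3′ on the strand of its gene. Capitals mark CCAAT or its reverse complement ATTGG and, in SREBF2, the TCACNCCAC match. The windows are chr7:92134478-92134727 (minus strand), chrX:48521558-48521807 (plus strand), chr7:155297628-155297877 (plus strand) and chr22:41832855-41833104 (plus strand) of GRCh38.p14.
CYP51A1: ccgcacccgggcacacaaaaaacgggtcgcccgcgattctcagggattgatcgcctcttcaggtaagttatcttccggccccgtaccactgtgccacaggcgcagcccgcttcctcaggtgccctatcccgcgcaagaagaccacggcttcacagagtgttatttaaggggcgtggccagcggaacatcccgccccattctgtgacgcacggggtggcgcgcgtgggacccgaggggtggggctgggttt
EBP: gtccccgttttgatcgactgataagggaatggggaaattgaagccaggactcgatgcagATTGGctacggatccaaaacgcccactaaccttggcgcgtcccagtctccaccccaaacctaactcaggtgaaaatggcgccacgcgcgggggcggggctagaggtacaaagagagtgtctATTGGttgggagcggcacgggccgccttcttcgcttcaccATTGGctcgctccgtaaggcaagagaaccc
INSIG1: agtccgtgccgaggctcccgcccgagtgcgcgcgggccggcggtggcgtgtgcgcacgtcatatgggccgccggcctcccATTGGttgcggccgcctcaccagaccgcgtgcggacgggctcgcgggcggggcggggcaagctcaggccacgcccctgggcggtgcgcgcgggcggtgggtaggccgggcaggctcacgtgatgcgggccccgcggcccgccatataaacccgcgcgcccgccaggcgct
SREBF2: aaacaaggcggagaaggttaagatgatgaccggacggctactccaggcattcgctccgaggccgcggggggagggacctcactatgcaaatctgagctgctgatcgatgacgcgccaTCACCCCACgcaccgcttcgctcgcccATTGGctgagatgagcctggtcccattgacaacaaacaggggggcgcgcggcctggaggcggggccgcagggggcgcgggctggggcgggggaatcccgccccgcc
EBP held 3 ATTGG matches in this stretch and INSIG1 and SREBF2 1 each. CYP51A1 had no match to CCAAT, which says only that these letters are not in this window. The windows shown were chosen to cover the directions, so their matches cannot show whether CCAAT goes with direction, which was not tested.

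The sterol pathway starts with a mevalonate stage of 7 measured enzymes, of which 5 fell with 1035, 1 rose and 1 did not pass. ACAT2, which joins acetyl-CoA units in the cytosol, had 143 and 146 CPM in DMSO, 74.6 and 80.5 with 1035, 135 and 131 with Doxo, and 85.3 and 75.5 in the combination. The libraries with 1035 were all far below those without, and the log2 fold change in 1035 against DMSO was -0.90 ± 0.07 (adjusted p = 9.2e-15). The exons of ACAT2 overlap those of TCP1 and SOD2 on the opposite strand in GENCODE v29, and the strand setting of the read counter was not given in the sources used here. Both fell with 1035, TCP1 by 0.25 on the log2 scale (SE 0.06, adjusted p = 4.7e-04) and SOD2 by 0.28 (SE 0.06, adjusted p = 2.2e-04). Whether reads of TCP1 or SOD2 were counted in ACAT2 was not tested.

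HMGCS1, the synthase of HMG-CoA, had 174 and 170 CPM in DMSO, 128 and 130 with 1035, 173 and 151 with Doxo, and 130 and 138 in the combination. Its libraries with 1035 all lay below the rest, and it fell by 0.41 on the log2 scale (SE 0.06, adjusted p = 7.8e-07). PMVK, a kinase of the same stage, fell by 0.71 (SE 0.14) from a low level of 13.5 and 12.4 CPM in DMSO, with as few as 96 reads in a library. FDPS, which makes farnesyl diphosphate, fell by 0.22 (SE 0.06), and GENCODE v29 lists 8 pseudogenes of it that can share its reads.

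IDI1, an isomerase that readies the 5-carbon units for joining, had 177 CPM in both DMSO libraries, 146 and 135 with 1035, 159 and 147 with Doxo, and 139 and 136 in the combination. The Doxo libraries lay between DMSO and the libraries with 1035, and the fall in 1035 against DMSO was 0.33 on the log2 scale (SE 0.06, adjusted p = 1.4e-05). MVD, the decarboxylase one step before IDI1, went the other way. It had 34.9 and 33.5 CPM in DMSO, 39.4 and 41.7 with 1035, 34.0 and 31.3 with Doxo, and 39.1 and 38.8 in the combination. All 4 libraries with 1035 were above the others, and the log2 fold change was 0.24 ± 0.08 (adjusted p = 0.0149). This call was lost with DESeq2 (adjusted p = 0.0777) and without DMSO library 2 (0.116) or 1035 library 2 (0.108), in a range of 0.00259 to 0.116 over 16 alternatives. MVK, mevalonate kinase, did not pass at -0.09 ± 0.10 (adjusted p = 0.507). MVK shares exon sequence with MMAB on the opposite strand, which fell by 0.66 on the log2 scale (SE 0.09, adjusted p = 4.8e-08).

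From squalene to lanosterol, 1 of 3 enzymes fell and the others did not pass. SQLE, the squalene epoxidase and a slow step of the pathway, went from 98.7 and 103 CPM in DMSO to 77.7 and 79.3 with 1035, a log2 fold change of -0.36 ± 0.07 (adjusted p = 1.9e-05). FDFT1, squalene synthase, stood at 0.05 ± 0.06 and LSS, the cyclase that forms lanosterol, at 0.01 ± 0.07. Their libraries overlapped between groups.

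After lanosterol, 4 of 8 enzymes fell, 1 rose and 3 did not pass. CYP51A1, which removes the first methyl group from lanosterol, had 110 and 116 CPM in DMSO, 66.9 and 68.3 with 1035, 102 and 86.8 with Doxo, and 67.8 and 66.2 in the combination. With 1035 its level was low and nearly the same in all 4 libraries, and it fell by 0.74 on the log2 scale (SE 0.07, adjusted p = 1.3e-11). In GENCODE v29 CYP51A1 has 3 pseudogenes that can share its reads. Its exons overlap CYP51A1-AS1 on the opposite strand and AC000120.2 and AC000120.3 on the same strand. Whether reads of these were counted in CYP51A1 was not tested. EBP, a sterol isomerase, had 61.9 and 60.7 CPM in DMSO, 34.7 and 39.6 with 1035, 56.3 and 50.9 with Doxo, and 32.8 and 33.1 in the combination. It fell by 0.73 (SE 0.08, adjusted p = 1.1e-09), again with no overlap between libraries with and without 1035. DHCR7, which carries out a last reduction to cholesterol, fell by 0.39 (SE 0.08), and MSMO1, a methyl sterol oxidase, by 0.30 (SE 0.08). MSMO1 was the member that fell without a clear gap, because Doxo library 2 (42.0 CPM) lay within the range of the libraries with 1035.

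TM7SF2, a reductase that removes a double bond after CYP51A1, was the enzyme of this stage that rose. It had 22.9 and 18.7 CPM in DMSO, 24.3 and 26.4 with 1035, 20.4 and 20.3 with Doxo, and 23.2 and 24.9 in the combination. The 4 libraries with 1035 were the highest, but DMSO library 1 came within a small gap of them. The log2 fold change was 0.28 ± 0.10 (adjusted p = 0.021). The call was lost with DESeq2 (adjusted p = 0.126) and without DMSO library 2 (0.389) or 1035 library 2 (0.16), in a range of 0.00483 to 0.389. TM7SF2 overlaps VPS51 on the same strand, which fell by 0.24 on the log2 scale. NSDHL, HSD17B7 and SC5D, further enzymes of the stage, stood at -0.13 ± 0.12, -0.18 ± 0.14 and -0.11 ± 0.09 and did not pass.

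Of the 6 regulators INSIG1, INSIG2 and SREBF1 rose with 1035, and SREBF2, SCAP and STARD4 did not pass. INSIG2, which holds SCAP in the endoplasmic reticulum, had 12.4 and 13.2 CPM in DMSO, 20.2 and 18.2 with 1035, 12.5 and 14.6 with Doxo, and 18.2 and 21.7 in the combination. The libraries with 1035 were all above the rest, and the rise of 0.59 ± 0.12 on the log2 scale (adjusted p = 5.2e-05) was the largest upward change of a member. SREBF1, whose SREBP-1 products favour fatty acid genes, had 76.2 and 69.9 CPM in DMSO, 89.4 and 93.0 with 1035, 68.0 and 67.6 with Doxo, and 94.8 and 96.8 in the combination. It rose by 0.32 ± 0.07 (adjusted p = 9.6e-05), with no overlap. SREBF1 shares exon sequence with RAI1 on the opposite strand, which rose with 1035 by 0.32 ± 0.09 (adjusted p = 0.00298). In 1035+Doxo against Doxo RAI1 stood at 0.18 ± 0.09 and did not pass (adjusted p = 0.0965), where SREBF1 had 0.50 ± 0.07, and in Doxo against DMSO at 0.15 ± 0.09, where SREBF1 had -0.11 ± 0.07. Whether reads of RAI1 were counted in SREBF1 was not tested. The counts do not separate the SREBP-1a and SREBP-1c transcripts.

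INSIG1, the second SCAP anchor and a known target of SREBP, had 159 and 162 CPM in DMSO, 190 and 171 with 1035, 148 and 134 with Doxo, and 168 and 170 in the combination. The libraries with 1035 were above the rest, though DMSO came close. The log2 fold change was 0.17 ± 0.06 (adjusted p = 0.0191). The call was lost without DMSO library 1 (adjusted p = 0.129), DMSO library 2 (0.0761) or 1035 library 1 (0.313), in a range of 6.12e-05 to 0.313. INSIG1 was thus higher while most other sterol members that passed were lower. SREBF2, whose product favours sterol genes, stood at 0.05 ± 0.06 and did not pass. STARD4, a carrier of cholesterol between membranes, stood at 0.01 ± 0.07. SCAP stood at -0.13 ± 0.06 (adjusted p = 0.0783), and it passed as lower in 5 of the 16 alternatives.

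Of the 8 fatty acid enzymes, FASN, ACACA, ACLY, FADS1 and FADS2 fell with 1035. FASN, the synthase that builds palmitate, had 385 and 387 CPM in DMSO, 249 and 267 with 1035, 406 and 386 with Doxo, and 254 in both libraries of the combination. It fell by 0.58 on the log2 scale (SE 0.06, adjusted p = 4.4e-11), and the libraries with and without 1035 were far apart. ACACA, which makes the malonyl-CoA that FASN uses, had 150 and 147 CPM in DMSO, 108 and 103 with 1035, 147 and 159 with Doxo, and 109 and 117 in the combination. It fell by 0.49 (SE 0.06, adjusted p = 1.7e-08). ACLY, which splits citrate into the acetyl-CoA used by both branches, had 560 and 547 CPM in DMSO, 430 and 463 with 1035, 518 and 507 with Doxo, and 438 and 423 in the combination. It fell by 0.31 (SE 0.06, adjusted p = 1.7e-05), and Doxo lay between DMSO and the libraries with 1035.

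Of the enzymes that modify fatty acids, both front-end desaturases fell and the other 3 did not pass. FADS1, the delta-5 desaturase, had 249 and 250 CPM in DMSO, 180 and 193 with 1035, 241 and 245 with Doxo, and 186 and 188 in the combination. It fell by 0.42 (SE 0.06, adjusted p = 9.7e-08). FADS2, the delta-6 desaturase beside it in the genome, fell by 0.32 (SE 0.07). FADS1 and FADS2 overlap on opposite strands, and whether reads of one were counted in the other was not tested. FADS2 also overlaps FEN1, which fell by 0.34, on the same strand, so strand cannot tell the reads of that overlap apart. SCD, which makes monounsaturated fatty acids, stood at -0.06 ± 0.18, with Doxo library 2 at 165 CPM and the other 7 libraries between 110 and 121. The elongases ELOVL5 and ELOVL6 stood at 0.01 ± 0.06 and -0.14 ± 0.11.

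**Figure D1:**
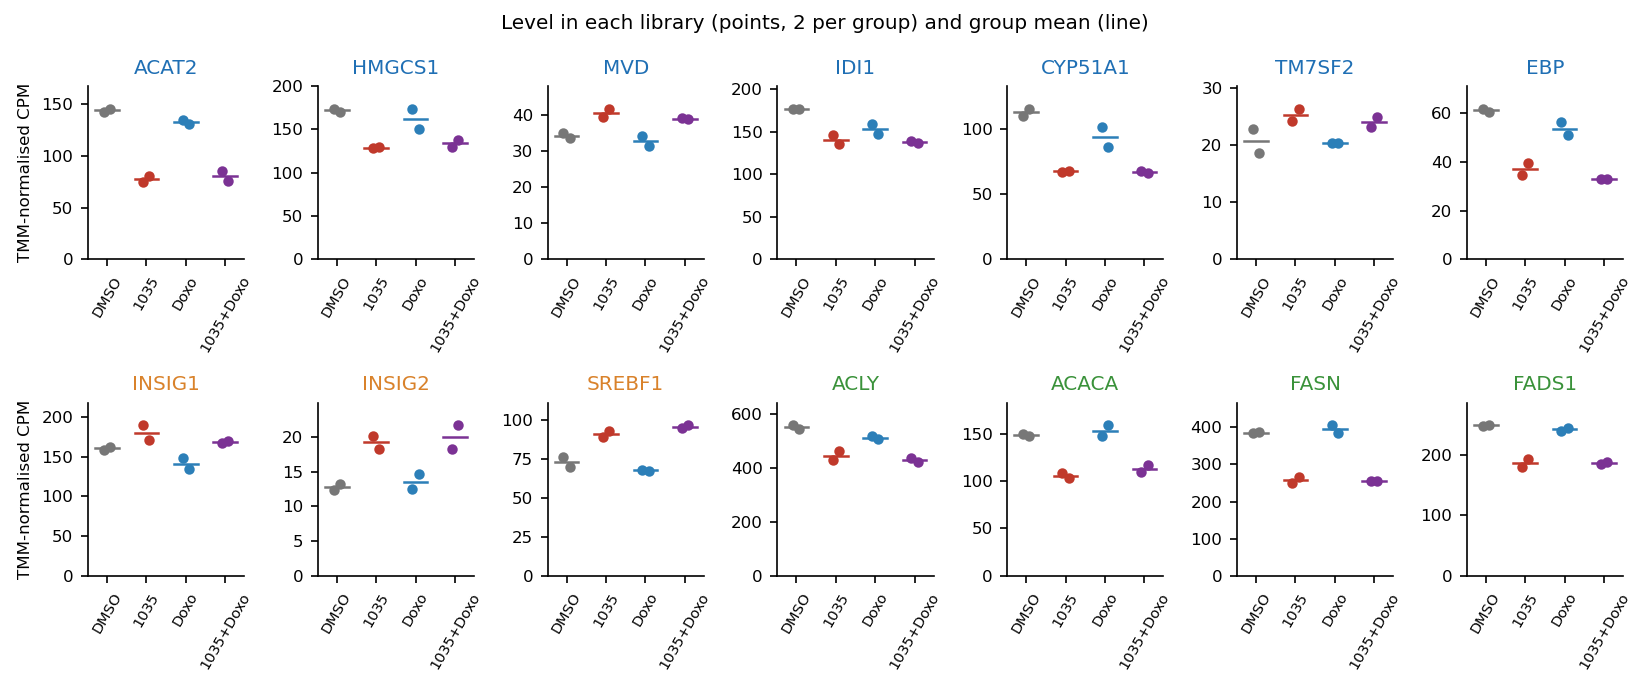
TMM-normalised CPM (y axis, from 0) of 14 members in the 4 groups (x axis); points are libraries, 2 a group, lines are group means, and title colours mark sterol enzymes (blue), regulators (orange) and fatty acid enzymes (green). In ACAT2 the libraries with 1035 lie between 74.6 and 85.3 CPM and those without between 131 and 146; in INSIG2 they lie between 18.2 and 21.7 against 12.4 to 14.6.

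Of the 20 members called in 1035 against DMSO, 17 passed in the same direction under each of the 16 alternatives, and the exceptions were MVD, TM7SF2 and INSIG1. No member that fell lost its call. The summed level of the 18 sterol enzymes was 1510 and 1500 CPM in DMSO and 1210 and 1250 with 1035. That of the 8 fatty acid enzymes was 1860 and 1850 against 1450 and 1510, and that of the 6 regulators 583 and 577 against 624 and 614.

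Levels between genes can be compared only per gene length, for which the authors' FPKM of the DMSO libraries were used. ACLY was the most abundant member per length, at 102 ± 1.46 FPKM (SD, n = 2), followed by ELOVL5 at 55.4 ± 2.32. FDPS (47.7 ± 0.644), IDI1 (47.6 ± 0.196) and FDFT1 (45.6 ± 0.944) came next, and FDPS and IDI1 did not differ beyond their spread. INSIG1 (42.4 ± 0.635) and FASN (41.5 ± 0.286) followed. INSIG2, at 3.13 ± 0.136 FPKM, was among the least abundant, so INSIG1 made up most of the INSIG RNA per length. HSD17B7 (2.53 ± 0.0627) and ELOVL6 (2.68 ± 0.0376) were lower still.

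Genes around these branches were followed in 7 further lists, whose counts can be read against the shares of all genes given above. The isoprenoid branch takes the products of FDPS into protein prenylation, coenzyme Q and dolichol, and 7 of its 12 genes fell and none rose (median log2 fold change -0.31). COQ2, which joins the ring and tail of coenzyme Q, fell by 0.83 (SE 0.12) and RABGGTA, a subunit of Rab prenyltransferase, by 0.72 (SE 0.12). The list of LXR receptors and cholesterol efflux had 5 of 8 genes higher and 1 lower (median 0.94). ABCG1, an exporter of sterol, went from 1.98 and 1.72 CPM in DMSO to 7.34 and 8.70 with 1035 (2.11 ± 0.22), and ABCA7, a transporter of the same family, rose by 1.21 ± 0.08. The other 3 that rose, named after their values were seen, were RXRA (1.75 ± 0.25), the partner receptor of LXR, ABCA1 (1.47 ± 0.27), an exporter of cholesterol, and MYLIP (0.67 ± 0.08), a ubiquitin ligase induced by LXR. The receptor gene NR1H2 fell by 0.29 (SE 0.08), and NR1H3 stood at 0.28 ± 0.13 and did not pass.

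Genes of a list on moving and storing sterol went both ways, with 4 of 13 higher and 4 lower. The list also held LBR (-0.01 ± 0.06, not past the test) and C14orf1 (-0.33 ± 0.13, among those lower), which have other roles. NPC1, which lets cholesterol leave the lysosome, rose by 0.64 ± 0.06, and SCARB1, a receptor for lipoproteins, fell by 0.67 (SE 0.07). Of 11 genes that process SREBP or sense sterol 2 rose and 3 fell. ERLIN1, which binds INSIG1 and SCAP in the endoplasmic reticulum, fell by 0.72 (SE 0.09). MBTPS1 (-0.02 ± 0.06) and MBTPS2 (0.23 ± 0.14), the proteases that release SREBP, did not pass.

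Of 17 tested genes of further fatty acid synthesis (21 listed) 5 rose and 3 fell. MLXIP, a transcription factor that responds to glucose, rose by 0.91 ± 0.06 and ACSL5, which activates fatty acids, fell by 0.92 (SE 0.08). Of 16 tested genes of fatty acid oxidation (17 listed) 4 rose and 3 fell. ACADVL, which starts the oxidation of long chains, rose by 0.37 ± 0.06 and ECI1, an isomerase of unsaturated chains, fell by 0.61 (SE 0.08). Of 11 tested genes of glycerolipid synthesis (13 listed) 6 rose and 1 fell (median 0.26), with LPIN1, a phosphatase that makes diacylglycerol, at 0.65 ± 0.07 and PCYT1A, the rate-limiting enzyme of phosphatidylcholine synthesis, at 0.33 ± 0.07. GPAM, which adds the first fatty acid to glycerol phosphate, was the one that fell, by 0.22 (SE 0.08).

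**Figure D2:**
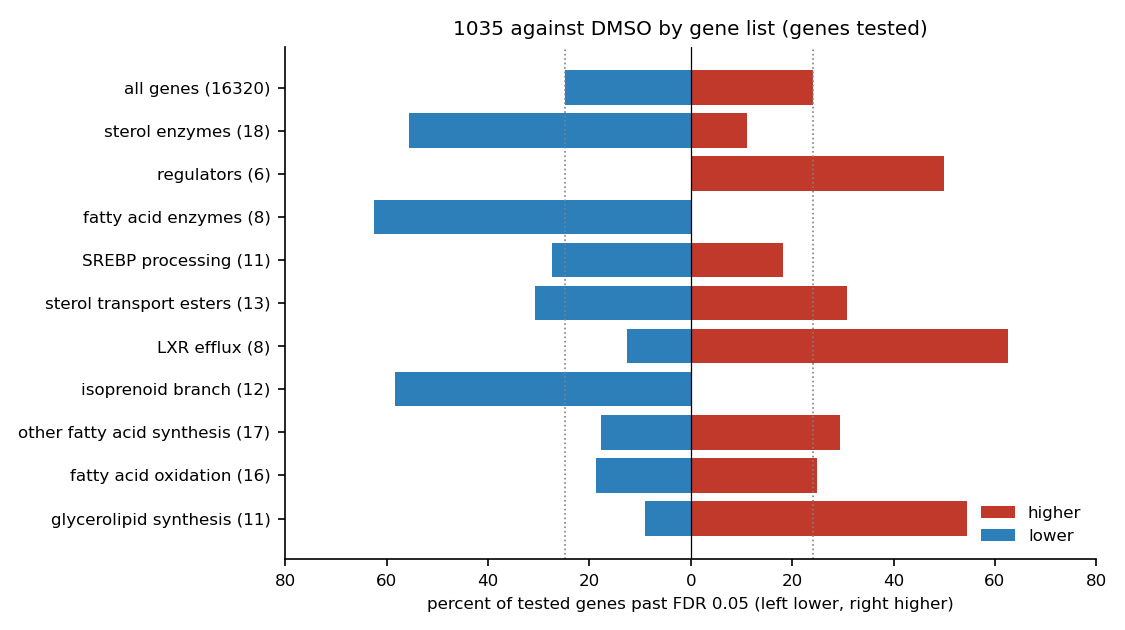
Percent of the tested genes of each list (number in brackets) that fell (blue, left) or rose (red, right) at an FDR of 5% in 1035 against DMSO (x axis, percent); dotted lines mark all genes, at 24.8% and 24.2%. The sterol enzymes (10 of 18 lower), fatty acid enzymes (5 of 8) and isoprenoid branch (7 of 12) reach furthest left.

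Doxorubicin alone left the members closer to DMSO. In Doxo against DMSO 1 of 32 members fell and none rose, against 0.545% and 0.784% of all genes. CYP51A1, at 102 and 86.8 CPM against 110 and 116, was the member called, at -0.25 ± 0.07 (adjusted p = 0.0441). This call held in 7 of 16 alternatives, with adjusted p between 0.000451 and 0.601, and was lost without Doxo library 2 (0.601), DMSO library 1 (0.243) or 2 (0.394), or combination library 1 (0.099) or 2 (0.102). At an unadjusted p under 0.05 there were 9 of 32 members, against 2169 of all 16320 tested genes. DESeq2 called 0 members, and among all genes 58 higher and 94 lower. Both Doxo libraries lay below both DMSO libraries for 17 members, against 24.0% of all genes, and above for 3, against 20.7%. The 17 included 11 of the 18 sterol enzymes, among them IDI1 (-0.21 ± 0.06, adjusted p = 0.0681) and EBP (-0.19 ± 0.08, adjusted p = 0.272), which did not pass. The median log2 fold change was -0.10 for the sterol enzymes, 0.04 for the fatty acid enzymes and -0.01 for all genes.

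The Doxo group was the one whose libraries differed most. Without Doxo library 1, 4 members fell and 2 rose, while among all genes the calls went from 128 higher and 89 lower to 651 and 527. IDI1 (adjusted p = 0.00554), MSMO1 (0.0463) and INSIG1 (0.013) then joined CYP51A1 as lower, and SREBF2 (0.0096) and SCD (4.17e-07) were higher. Those calls rest on library 2 alone, in which SCD stood at 165 CPM against 116 in library 1.

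**Figure D3:**
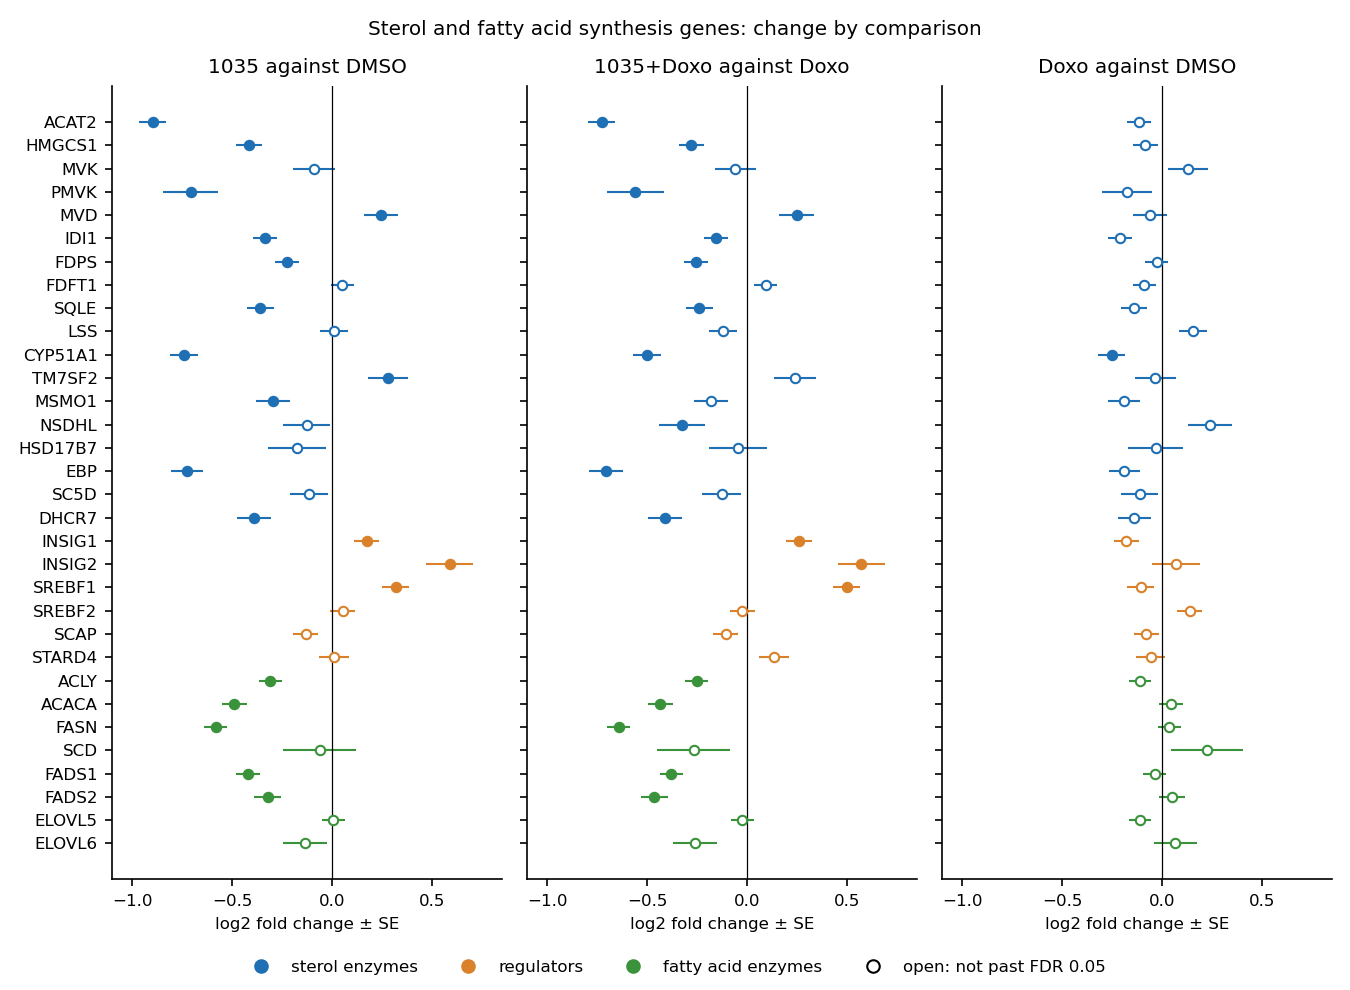
Log2 fold change ± SE (x axis) of the 32 members (y axis, by role) in 3 comparisons; filled points passed an FDR of 5% and open points did not. The left and middle panels have 20 and 19 filled points and the right panel, Doxo against DMSO, has 1 (CYP51A1).

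The effect of 1035 was also measured in the presence of doxorubicin, in 1035+Doxo against Doxo, which shares no library with 1035 against DMSO. Here 15 members fell and 4 rose, against 22.0% and 21.8% of all genes. The sterol enzymes had 10 lower and 1 higher, the fatty acid enzymes 5 lower, and the regulators 3 higher. ACAT2 (-0.73 ± 0.07), EBP (-0.71 ± 0.08) and FASN (-0.64 ± 0.06) had the largest falls, and INSIG2 (0.57 ± 0.12) and SREBF1 (0.50 ± 0.07) the largest rises. NSDHL, an oxidoreductase that acts after CYP51A1, fell by 0.33 (SE 0.11, adjusted p = 0.0185), with 17.6 and 15.9 CPM in Doxo and 13.7 and 13.2 in the combination. MSMO1 (-0.18 ± 0.09, adjusted p = 0.0876) and TM7SF2 (0.24 ± 0.10, adjusted p = 0.0597) did not pass here. The calls of MVD, IDI1, SQLE and NSDHL were each lost in at least 1 alternative. With DESeq2 on all 8 libraries the adjusted p was 0.087 for MVD, 0.0636 for IDI1 and 0.137 for NSDHL. IDI1 also did not pass with upper-quartile scaling (0.15) or at a mean normalised count of at least 50 (0.0559), and its call held in 8 of 16 alternatives. Without Doxo library 1 the adjusted p was 0.283 for IDI1, 0.0864 for SQLE and 0.191 for NSDHL, and SCD then passed as lower (3.2e-09). IDI1 was also lost without DMSO library 1 (0.0621) or 2 (0.0636), and SQLE without combination library 2 (0.0885). MVD was lost without Doxo library 2 (0.0957), and IDI1, MVD and NSDHL without combination library 1 (0.114, 0.0737 and 0.0664) or 2 (0.175, 0.0563 and 0.105).

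Side by side, 18 members passed with the same sign in both comparisons of 1035, 14 lower and 4 higher. Among all genes 19.2% fell in both and 18.5% rose in both. The 18 were 90.0% of the members called without doxorubicin and 94.7% of those called with it, where all genes gave 77.0% and 86.1%. The sign was the same for 29 of 32 members. The 3 others, LSS, SREBF2 and ELOVL5, lay near 0 in at least one comparison. Across the 32 members the log2 fold changes had a Pearson r of 0.942, and across all genes 0.543. Genes are not independent replicates, and many of the other genes have lower counts, so these values only describe the tables. The median gap between the 2 comparisons was 0.08 on the log2 scale for the members and 0.12 for all genes.

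**Figure D4:**
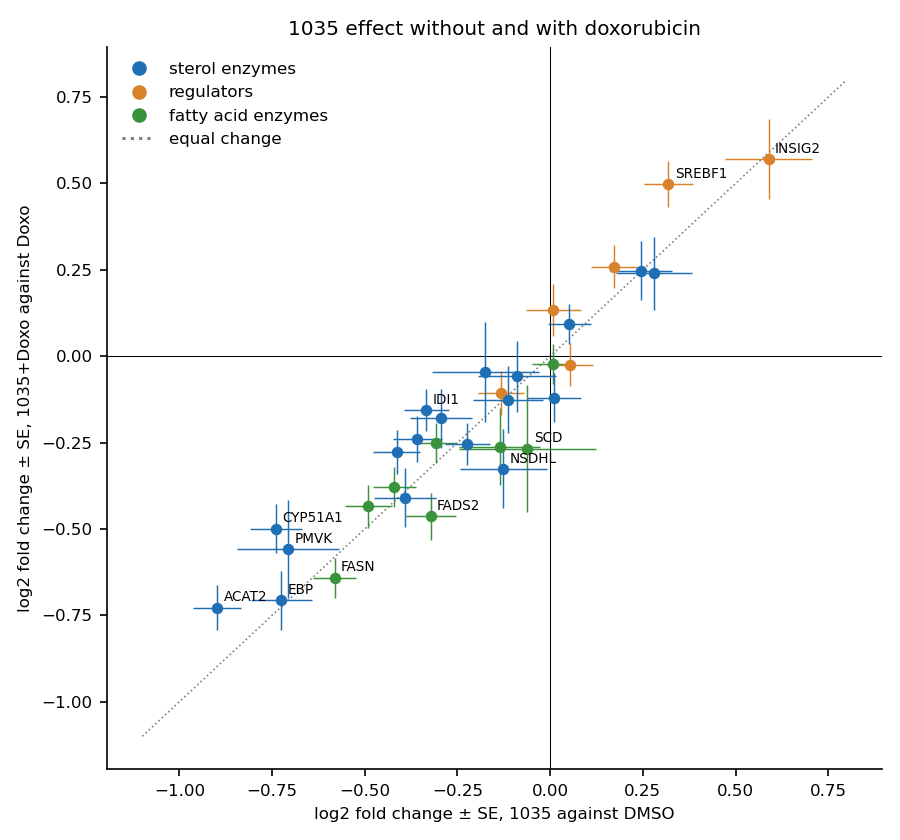
Log2 fold change ± SE of the 32 members in 1035 against DMSO (x axis) and in 1035+Doxo against Doxo (y axis), coloured by role; the dotted line marks equal change. INSIG2 and SREBF1 stand at the upper right and ACAT2, EBP, CYP51A1 and PMVK at the lower left; ACAT2 has -0.90 without doxorubicin and -0.73 with it.

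The interaction is the effect of 1035 with doxorubicin minus its effect without it. No member passed, where 0.0184% of all genes were higher and 0% lower. At an unadjusted p under 0.05 there were 2 of 32 members with edgeR, against 786 of all 16320 tested genes. DESeq2 gave 0 members at that level, and the smallest adjusted p of a member with edgeR was 0.952. The differences ranged from -0.21 for SCD to 0.24 for CYP51A1. For ACAT2 the difference was 0.17 ± 0.09, for IDI1 0.18 ± 0.09, for SREBF1 0.18 ± 0.09 and for FASN -0.06 ± 0.08. A p that misses the threshold does not show that the effects were equal. Without Doxo library 1 CYP51A1 (adjusted p = 0.0427) passed as higher and SCD (0.00128) as lower.

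Adding doxorubicin to 1035 changed no member past the test. In 1035+Doxo against 1035, 0 of 32 members passed with edgeR or DESeq2, against 0.349% higher and 0.147% lower of all genes. At an unadjusted p under 0.05 there was 1 of 32 members, against 1110 of all 16320 tested genes. It was ELOVL5 (-0.14 ± 0.06, adjusted p = 0.571), with 247 and 240 CPM with 1035 and 220 and 221 in the combination. EBP stood at -0.17 ± 0.09 and DHCR7 at -0.16 ± 0.09. CYP51A1, the member called with doxorubicin alone, stood at -0.01 ± 0.07.

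The combination was last set against DMSO, which shares its controls with the single agents. There 17 members fell and 2 rose, against 24.7% and 24.5% of all genes. INSIG2 (0.64 ± 0.12) and SREBF1 (0.39 ± 0.07) rose. EBP (-0.90 ± 0.08), ACAT2 (-0.84 ± 0.07), CYP51A1 (-0.75 ± 0.07) and PMVK (-0.73 ± 0.14) had the largest falls. All 15 members that fell with 1035 alone fell here too. SC5D, the desaturase near the end of the pathway, fell by 0.24 (SE 0.10, adjusted p = 0.0367) and SCAP by 0.18 (SE 0.06, adjusted p = 0.0134). With upper-quartile scaling neither SC5D (adjusted p = 0.121) nor SCAP (0.0913) passed. SC5D also did not pass with DESeq2 (0.154) or at a mean normalised count of at least 50 (0.0787). Both calls were lost without combination library 1 (0.0687 and 0.0645) or 2 (0.215 and 0.0946), SC5D also without DMSO library 2 (0.302) and SCAP without DMSO library 1 (0.12). MVD (0.19 ± 0.09), TM7SF2 (0.20 ± 0.10) and INSIG1 (0.08 ± 0.06), which rose with 1035 alone, did not pass.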

How the data were processed

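Total RNA was depleted of ribosomal RNA (Ribo-Zero Gold), made into stranded TruSeq libraries and sequenced as single reads of 50 bases, per the labels' protocols. Alignment used hg19 with Novoalign 2.08.01 and the authors' testing DESeq2 1.4.5, per the submitters' processing notes; which program counted reads, on which strand and over which gene models was not given in the sources used here. The authors deposited 4 tables of raw counts per gene, which were joined by gene identifier (17849 genes in any table, 1241 without counts in all 8 libraries left out, 132880 counts held by 2 tables all equal). The deposited FPKM values, scaled by the authors to gene length and library reads, served only to compare levels between genes.

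Groups came from the sample titles. After filterByExpr, which removed 288 genes, counts were scaled by TMM and fitted with edgeR 4.0.16 (R 4.3.3, robust quasi-likelihood, 4 group means, no block, all 8 libraries), tested two-sided and adjusted by Benjamini-Hochberg over 16320 genes in each of 6 comparisons. The fit had 4 residual degrees of freedom and a median prior of 35.6. SE is the size of the log2 fold change divided by the square root of F. The test was checked on simulated data.

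The members and lists were chosen with earlier results of these data known, so lists got counts and medians but no test. Values in each library were given for the 5 sterol enzymes, 3 regulators and 4 fatty acid enzymes with the smallest p in 1035 against DMSO, for members called with doxorubicin and for members called against most of their class; from each further list the 2 genes with the smallest p were named, except 1 gene that is not reported here. Alternatives were other size factors, upper-quartile scaling, DESeq2 1.42.0, other filters, the replicate block, fits of only the groups compared, and leaving out libraries. Overlaps and pseudogenes came from GENCODE v29 (GRCh38), whose coordinates were not mixed with hg19.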

Additional observations from a re-analysis of the deposited data

How the results depend on the processing

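No member called in a comparison changed direction there under the alternatives run. Of 20 members called in 1035 against DMSO 17 kept their call throughout, as did 15 of 19 in 1035+Doxo against Doxo and 17 of 19 in 1035+Doxo against DMSO. The counts that moved by over 1.5 times follow, in places with the count of all genes beside them. The cause was not tested except where stated. In 1035 against DMSO the members higher were 3 with DESeq2, where all genes higher were 2981 against 3944 with the settings used above. In Doxo against DMSO the members lower were 0 with upper-quartile scaling, DESeq2 or only the groups compared; all genes higher were 58 with DESeq2 and 63 with only the groups compared, and all genes lower 47 with the latter. With only the groups compared, which leaves fewer libraries, 1035+Doxo against 1035 had 86 genes higher and 51 lower. Members higher in 1035+Doxo against Doxo were 7 with upper-quartile scaling, where all genes higher were 4130 against 3560 with the settings used above. Members higher in 1035+Doxo against DMSO were 5 with upper-quartile scaling, 5 at a mean normalised count of at least 50 and 4 with only the groups compared. All genes higher in these were, in turn, 4645, 3697 and 4432, against 3999 with the settings used above. Upper-quartile scaling moved the median of all genes in 1035 against DMSO from 0.01 to 0.07. Fits of only the groups compared were not run for the interaction, which needs all groups.

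Leaving out each library in turn gave, in 1035 against DMSO, 2 to 5 members higher. In Doxo against DMSO it gave 0 to 2 members higher, 0 to 4 lower, and 27 to 651 of all genes higher and 5 to 527 lower. In 1035+Doxo against 1035 it gave 29 to 87 of all genes higher and 1 to 55 lower. In the interaction it gave 0 to 1 member higher, 0 to 1 lower, and 1 to 63 of all genes higher and 0 to 177 lower. The upper ends in Doxo against DMSO and the interaction came without Doxo library 1. Where a group keeps 1 library, that library is assumed to vary like the other groups.

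Replicate numbers were shared between groups, but the deviations of same-numbered libraries correlated at only -0.085 to 0.075, so the numbers are not taken to pair them. With the replicate block, 2 members were lower in Doxo against DMSO (IDI1 joined, adjusted p = 0.0466) and 12 of all genes were lower in the interaction. An alternative chosen after seeing the data left out the libraries with the largest share of mitochondrial reads, 1035 library 2 and Doxo library 2. It gave 3 members higher in 1035 against DMSO, 0 lower in Doxo against DMSO, 4 higher in 1035+Doxo against DMSO, and 2 of all genes lower in the interaction. Depth limits PMVK and HSD17B7 most, with as few as 96 and 105 reads in a library.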
